A study of Sus scrofa with 75 samples.

Results

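The genes described here are those for which long-read sequencing of pig organs gave the most transcripts. They were chosen from the assembled annotation, with no expression value used directly. The choice took every gene identifier with 20 or more transcripts whose source is PacBio. This gave 186 of the 8038 genes that hold a long-read transcript (2.31%) and 5729 of 34778 long-read transcripts (16.5%), out of 95050 transcripts on 35936 genes in all. A median gene of this kind held 25 long-read transcripts, against 2 over all genes with any. The limit of 20 falls in a continuous range, with 18 genes holding exactly 20 and 15 holding exactly 19. A long-read transcript is annotated through long reads, so genes with many reads in an organ could pass more easily.

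Material came from heart, kidney, liver, lung and spleen of male pigs aged 12 months, in groups titled BS and DSE, codes that the labels do not explain. No treatment or genetic change is named for either group. Short-read libraries depleted of ribosomal RNA covered the 5 tissues of 4 BS and 4 DSE animals, 40 libraries, with levels in TPM (a level per transcript length, scaled to the same sum in each library). PacBio IsoSeq, which reads a transcript from end to end, covered each pig group and tissue in 1 library, 10 in all, with levels as counts of full-length reads. The labels do not say which animals went into the long-read libraries.

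A pre-mRNA can be spliced in many ways, because internal exons can be kept or skipped, splice sites can shift, and introns can remain. Muscle and epithelial cells are well known for their own programmes of short alternative exons, in muscle under RNA-binding proteins such as the MBNL and CELF families. A reading frame that stops well before the last exon junction can send the transcript to nonsense-mediated decay, a route that many splicing factors use to limit their own level.

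Defining genes of the organs were high where the labels place them, and 2 libraries held genes of another tissue. Of the heart muscle genes MYL2, TNNT2, MYH7, TNNC1 and MYL3, all 5 had their highest value outside the heart in the BS4 liver library, between 30.8 and 73.2 TPM, against at least 3743 TPM in every heart library. The B-cell genes MS4A1, CD79A and CD79B had their highest value outside the spleen in the DSE2 lung library, between 12.2 and 45.7 TPM. Their means over the lung libraries were 11.2, 26.0 and 8.52 TPM, so they were not confined to that library. The long-read libraries held 119623 to 456783 full-length reads each.

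Of the 186 genes, 172 had a symbol. LMO7, which codes for a LIM-domain protein of cell junctions and the muscle Z-disc (chromosome 11, 47911045 to 48133448, build susScr11), held 110 long-read transcripts. MBNL1, a splicing regulator, held 98, EIF4A2, a helicase of translation initiation, 83, RBM39, a splicing factor, 80, and SORBS2, an adaptor of the Z-disc, 79. PRPF39, a factor of the U1 snRNP, held 72, MLIP, a muscle protein that binds lamin, 71, MATR3, an RNA-binding protein of the nuclear matrix, 67, SEC31A, a coat protein of vesicles that leave the endoplasmic reticulum, 62, and EPB41L3, a linker between membrane and actin, 61. A further 14 identifiers had no symbol. Of these, ENSSSCG00000061957 held 59 long-read transcripts and ENSSSCG00000038947, whose span matches that of HNRNPC in RefSeq, held 56.

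The member transcripts were long, many-exon molecules with coding regions. They had a median of 15 exons (quartiles 10 and 21) and 3752 nt, against 10 exons and 3116 nt for the long-read transcripts of other genes. A coding region was annotated on 5692 of them (99.4%). The coding end lay more than 50 nt before the last exon junction in 18.4% of coding members, in 19.4% of coding long-read transcripts of other genes, and in 11.8% of the 902 Ensembl and RefSeq transcripts of the same 186 genes.

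No member repeated an intron chain of the reference annotation (0 of 5183 distinct chains), so every member holds a chain of introns that the reference transcripts of its gene lack. Of the exon junctions in members, 42.9% were absent from the reference transcripts, against 23.3% for other long-read genes. A median gene had 8 cassette exons (internal exons that another member skips inside 1 intron), 4 retained introns, 4 clusters of start sites within 50 nt, and 1 cluster of ends. Of 1744 cassette exons, 864 (49.5%) had a length divisible by 3, against 40.8% for other long-read genes. The 5692 coding members carried 2899 distinct coding regions, and 13.4% carried a coding region already in the reference.

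Genes built their transcripts in different ways. LMO7 had 11 clusters of start sites and 58 distinct coding regions, and 1 of its 110 coding members had an early coding end. SORBS2 had 12 start clusters, and 14 of its 17 cassette exons had lengths divisible by 3. MLIP had 13 of 14 such cassette exons and no retained intron. SEC31A had 1 start cluster and 6 cassette exons, all 6 divisible by 3, which were combined into 34 coding regions. By contrast EIF4A2 had 20 retained introns and 36 early coding ends in 79 coding members. PRPF39 had 17 retained introns and 23 early coding ends in 72 members. MYH7, the slow myosin heavy chain, had 84 cassette exons among 50 members, and 25 of these members contained an intron that spans 5 or more exon blocks of other members, a block being a run of overlapping internal exons. The reads of those 25 members numbered 58 in all. Over all 186 genes, 159 members in 36 genes contained such a long skip.

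Early coding ends were unevenly spread over gene groups. Lists of functional groups were drawn up for the comparison, and 42 of the 186 genes were on them when matched by symbol. The hnRNP proteins, which package nuclear RNA, counted HNRNPA2B1 and HNRNPK as members, with an early coding end in 60 of 95 coding transcripts (63.2%). ENSSSCG00000038947, which matches HNRNPC by span but has no symbol, was not counted, and had 0 of 56. The translation factors EIF4A2, EIF4G2 and EEF2 had 64 of 151 (42.4%). ENSSSCG00000004489, whose span matches that of EEF1A1 in RefSeq, was likewise not counted, and had 6 of 24. Genes of the sarcomere and of muscle calcium handling had 69 of 223 (30.9%), with 17 of 23 for TPM2 and 25 of 27 for CAMK2D, a calcium-dependent kinase. The tissue splicing regulators MBNL1, MBNL2, CELF1 and PTBP1 had 14 of 171 (8.19%), of which 13 were PTBP1 transcripts. The SR proteins, SR-related proteins and their kinases (SRSF10, RBM5, RBM39, CLK1 and CLK4) had 22 of 195 (11.3%). The Z-disc and LIM adaptors had 9 of 319 (2.82%), the membrane trafficking genes (PICALM, NUMB, EPS15, SEC31A and PPFIBP1) 5 of 186 (2.69%), and the cytoskeletal linkers (CTNND1, CTNNB1, EPB41L2, EPB41L3 and 4 more) 14 of 262 (5.34%). All 20 transcripts of ITIH4, a plasma protein of the liver, had an early coding end, and 0 of 31 of PTPRC, the CD45 phosphatase of blood cells. The share over all coding members was 18.4%.

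Members with an early coding end had a median of 2 full-length reads, and other coding members 3. The former held 3.96% of member reads. Usage is the share of the gene's TPM, here with no limit on the level of the gene. A usage of 10% or more in some tissue was reached by 70 members with an early coding end (6.70%). It was reached by 750 of the other coding members (16.1%).

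Full-length reads were few for most members. In all, members took 263163 reads, which is 21.2% of the reads on annotated long-read transcripts and 11% of all full-length reads. No read fell on 387 members in these 10 libraries, 811 had 1 read, 3182 had 2 to 9, and 1349 (23.5%) had 10 or more. The median was 3 reads, as for long-read transcripts of other genes. Reads in all 5 tissues were found for 682 members, and in 1 tissue for 2401. Among the members with 10 or more reads, 644 were read in all 5 tissues and 253 in 1.

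An isoform-rich gene was also a well-read gene, with a median of 611 reads against 17.5 for other genes with long-read transcripts. Across the 8038 genes, the number of long-read transcripts followed the number of reads with Spearman's rho of 0.72 and the largest exon number of a transcript with 0.29. Genes are not independent replicates, and more reads give more chances to find a transcript. The reads counted lie on the same transcripts whose number defines the genes. The relation was thus partly built in and is given as a description. Of the 186 genes with the most reads, 54 were isoform-rich.

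These counts do not hold all reads of the genes. Long-read identifiers of the same loci that the annotation lacks took 156181 of 423989 reads (36.8%). Whether these identifiers match transcripts of the reference was not tested. Members held 90% or more of the reads of their locus in 113 genes and under 25% in 17. The share was 0.956% for MYH7, 2.35% for EIF4G2, 6.43% for ALB and 17.1% for TPM2, against 99.8% for TPM1 and 100% for LMO7, SORBS2 and PDLIM5. Reads of a gene below are reads of its members only.

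The transcripts with the most reads showed no common pattern over tissues. Among genes with a symbol, PB.3096.2 of EEF2, the translocase of translation elongation, had 17739 reads, 99.5% of the reads on that gene's 20 members. PB.12230.1 of HSPA8, a constitutive chaperone, had 8135 reads and 93.5% of its gene's member reads. Both were also the main transcripts by TPM, with 98.8 ± 0.458% of EEF2 and 94.3 ± 2.67% of HSPA8 in heart (SD, n = 8). PB.18241.1 of ACSL1, which activates fatty acids, had 11353 reads and 75.4% of the gene's member reads, but 0.182 ± 0.0996% of the gene's TPM in liver and 14.9 ± 13.5% in spleen. PB.7188.12 of A2M, a protease inhibitor of plasma, had 7791 reads, with 3608 in BS liver and 1710 in DSE liver, and took 1.55 ± 1.30% of the gene's TPM in liver, 4.84 ± 3.996% in lung, 14.05 ± 9.02% in spleen, 23.4 ± 15.4% in kidney and 34.9 ± 11.7% in heart. PB.14110.4 of PECAM1, an adhesion protein of endothelium, had 6042 reads and between 3.58% and 19% of the gene's TPM over the 5 tissues. The long and short reads thus ranked the transcripts of ACSL1, A2M and PECAM1 differently.

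At an equal number of reads, heart showed the most member transcripts in both pig groups. With all reads, BS heart held 2761 members, BS kidney 2083, BS lung 1789, BS liver 1597 and BS spleen 1337, and the DSE libraries held 1994, 1134, 1685, 1208 and 1263 in that order of tissues. Thinned to the 13605 member reads of the smallest library, heart was expected to show 1533 members in BS and 1362 in DSE, and lung followed with 1393 and 1299. The other 3 tissues lay between 1079 and 1337. With 1 library per pig group and tissue there is no test of this order.

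**Figure D1:**
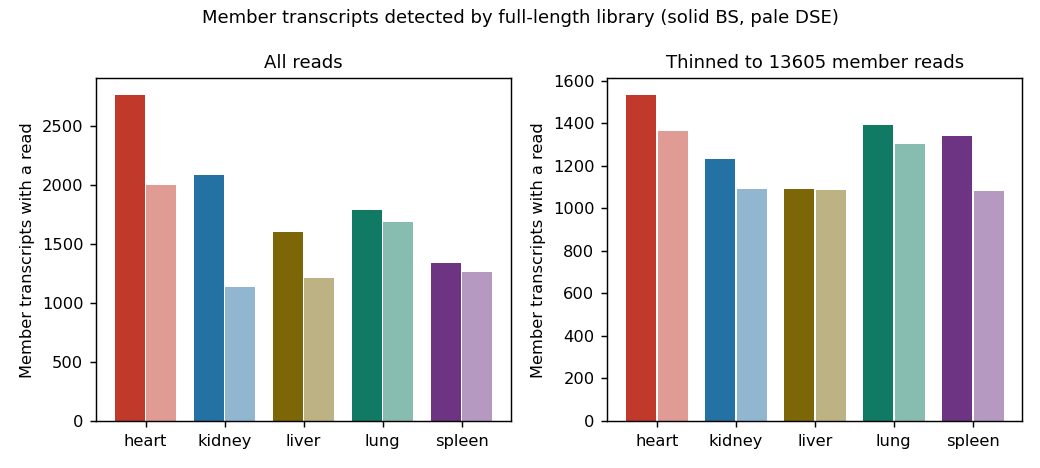
Number of member transcripts with at least 1 full-length read in each long-read library (y axis) by tissue (x axis), with all reads on the left and thinned to 13605 member reads on the right. Solid bars are BS and pale bars DSE, and heart is the highest tissue of each pig group in both panels.

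By full-length reads, 347 of 444 members with enough reads to be tested (78.2%) differed between tissues, beside 71.5% of all identifiers tested. The test was edgeR quasi-likelihood, with Benjamini-Hochberg over 5693 long-read identifiers. These include identifiers that the annotation lacks. The 444 members lay on 160 genes. The highest tissue was heart for 142 of the 347 (40.9%), spleen for 57, liver for 56, kidney for 53 and lung for 39. Heart was the highest tissue for 26.8% of all called identifiers. Members were annotated through such reads, so these shares are not independent of the choice of genes. The pig groups stood in for replicates in this test, with their mean difference fitted. Its error therefore mixes animals, libraries and differences of pig groups that vary by tissue. In bulk tissue, fewer cells of a type and less RNA per cell cannot be told apart.

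Some members were read in 1 organ almost alone. PB.724.22 of TPM1, a tropomyosin that lies along actin filaments, had 2122 heart reads in BS, 990 heart reads in DSE and 0 in the other 8 libraries. Per library total this was at least 229-fold higher in heart in BS and at least 212-fold in DSE, counting 3 reads for a library at 0. PB.15163.13 of LRRC2, a leucine-rich repeat protein, had 820 and 433 heart reads and 0 elsewhere, at least 88.6-fold and 92.8-fold higher. PB.11645.45 of PDLIM5, a PDZ and LIM protein of the Z-disc, had 457 and 607 heart reads and 0 elsewhere, at least 49.4-fold and 130-fold higher. In liver, PB.11285.2 of ALB, serum albumin, had 2432 reads in BS and 2053 in DSE, with 1 read each in BS heart and DSE lung. PB.7368.1 of SLC38A4, an amino acid transporter, had 1759 and 1117 liver reads and 1 read in DSE heart. The adjusted p of all 5 was at most 1.03e-105. Short reads gave these transcripts other shares of their genes: 91.9 ± 1.01% for TPM1 and 53.3 ± 9.67% for LRRC2 in heart, but 0.553 ± 1.03% for PDLIM5 in heart, 0.381 ± 0.251% for SLC38A4 in liver and 0.0252 TPM for ALB in liver.

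At gene level, 35 of the 186 isoform-rich genes were enriched in 1 tissue (at least 4-fold over every other tissue, limma adjusted p under 0.05), which is 18.8%, beside 10.6% of all 16481 genes tested. Heart held 15 of them, kidney 10, liver 8, lung 1 and spleen 1, while of the 1751 enriched genes in all, heart held 288, kidney 422, liver 362, lung 435 and spleen 244. The heart genes included MYH7 with 5480 ± 585 TPM (SD, n = 8), TNNI3, the cardiac inhibitory troponin, with 12619 ± 2224 TPM, TPM1 with 5179 ± 671 TPM, PDLIM5 with 856 ± 88.8 TPM and ATP2A2, the calcium pump of the sarcoplasmic reticulum, with 1052 ± 104.2 TPM. In kidney they included the transporters SLC22A8, SLC34A1 and SLC12A1, and in liver ALB, TDO2 and ITIH4. The isoform-rich genes passed their limit through long reads, so these counts are not independent of that choice. LMO7 and MBNL1 were not enriched: LMO7 averaged 108 ± 29.3 TPM in heart and 130 ± 38.1 in lung, and MBNL1 39.8 ± 4.55 in heart and 166 ± 25.7 in spleen. Scaling by median ratios, which shifted tissues by log2 -0.78 in liver to 0.69 in lung on average, gave 41 genes, 21 of them in heart and 7 in kidney (501 and 339 over all genes), and kept 31 of the 35. SORBS2, EPB41L3, HAO2 and ACY1 were lost and TPM2, FHL1, SLMAP and USP28 were among the 10 gained. Usage and inclusion, described next, are ratios within a library, in which such a scaling cancels except through the pseudocount.

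Most of the genes' short-read signal fell on members. A median gene had 95.6% of its TPM on long-read transcripts in heart and 96.4% in spleen. Summed over the genes the share was 89.7 ± 0.690% in lung, 87.8 ± 0.651% in kidney, 75.2 ± 1.53% in heart, 67.5 ± 10.4% in spleen and 26.2 ± 5.67% in liver (SD, n = 8). Of the 5729 members, 697 were listed at 0 in all 40 libraries, and 108 of those had 10 or more full-length reads. PB.2425.1 of MYBPC3, a myosin-binding protein of the heart sarcomere, was among them with 907 reads. With no limit on the level of the gene, a usage of 10% or more in some tissue was reached by 827 members. A usage of 50% or more was reached by 77.

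The effective number of transcripts is the exponential of the Shannon entropy of mean usage over the 5 tissues. With no limit on level, this number had a median of 9.60 over the genes. Among genes with a symbol and at least 10 TPM in every tissue it was highest in SUPT20H, a subunit of a SAGA histone acetyltransferase complex, with 37.6, FAM13B with 32.3, SEC31A with 25.8, SORBS2 with 23.7 and SLMAP, a tail-anchored membrane protein, with 22.6. It was lowest in EEF2 with 1.13, HSPA8 with 1.5, TXNIP, an inhibitor of thioredoxin, with 1.55, NONO, a nuclear RNA-binding protein, with 1.78, and MYL6, a light chain of non-muscle and smooth muscle myosin, with 2.28. EIF4A2 combined 83 long-read transcripts with an effective number of 2.59, since 1 transcript took 78.8% to 88.9% of its TPM in each tissue. SORBS2 used more transcripts in heart, with an effective number of 40.2, than in spleen with 6.66, where 1 transcript took 48.7%. TPM1 went the other way, from 1.57 in heart to 8.55 in lung.

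**Figure D2:**
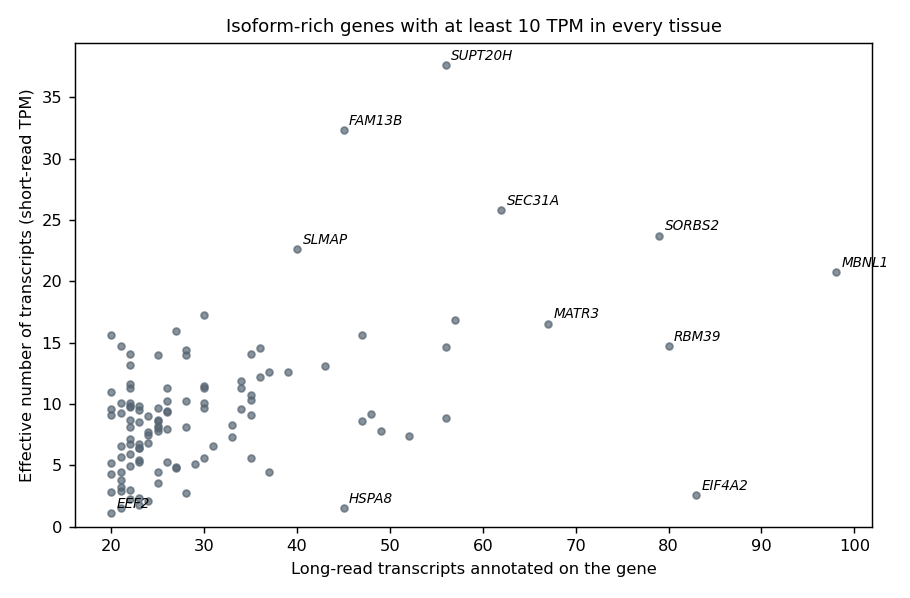
Effective number of transcripts by short-read TPM (y axis) against the number of long-read transcripts on the gene (x axis) for the 113 isoform-rich genes with at least 10 TPM in every tissue, 1 point per gene. SUPT20H and FAM13B lie at 37.6 and 32.3, while EIF4A2 with 83 transcripts lies at 2.59.

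For 66 of the 186 genes the same transcript led in all 5 tissues, for 69 genes 2 different transcripts led, and for 4 genes a different one led in each. LMO7 was among the last, with a leading share of 16.4% in kidney to 32.8% in liver. The leading transcript was a long-read one in all 5 tissues for 136 genes. No level was required for these counts, and 113 of the 186 genes reached 10 TPM in every tissue. In a tissue where a gene is low, its leading transcript rests on little signal.

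Transcript usage was then compared between tissues. Of 1037 members tested, on 140 genes, 140 changed usage by 20 points of percent or more (13.5%, limma moderated F test on log ratios with adjusted p under 0.05), on 74 genes. Over all transcripts tested the share was 12.4%. The median difference between the highest and lowest tissue was 8.17 points for members and 7.62 for all transcripts. Heart was the highest or lowest tissue for 99 of the 140 (70.7%), and for 68.6% of called transcripts over all genes. The share of members called is thus close to that of all transcripts.

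Among genes with at least 20 TPM in every tissue, the widest changes were in the tropomyosins. PB.724.22 of TPM1 took 90.6%, 91.7% and 93.5% of the gene's TPM in heart (lowest, median and highest of 8 libraries). It was at 0% in every lung and spleen library and at most 0.525% in kidney. In liver it was at 0% in 7 libraries and at 25.5% in BS4, the library with heart muscle genes. The difference of 91.9 points between heart and lung (limma adjusted p = 3.31e-23) was as large without the BS4 liver and DSE2 lung libraries. The transcript has 10 exons and an 855 nt coding region. The leading TPM1 transcript of lung, PB.724.17, skips 2 of its internal exons, of 79 and 76 nt, and carries another exon of 76 nt in exchange.

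PB.1637.33 of TPM2, the second tropomyosin gene, was listed at 0% in all 8 heart libraries and took 54.3 ± 6.24% in spleen, 52.4 ± 5.61% in kidney, 52.1 ± 4.27% in lung and 47.0 ± 7.86% in liver (SD, n = 8, adjusted p = 9.26e-37). The heart's leading transcript by TPM, PB.1637.26 with 34.0%, holds a different 76 nt exon in place of the one in PB.1637.33. Both have coding regions of 855 nt. PB.1637.33 had 0 full-length reads in these libraries and PB.1637.26 had 2, where members held 17.1% of the reads of the locus.

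PB.16853.15 of ATP2A2 took 1.98%, 2.66% and 3.65% in heart and 17.99%, 51.1% and 62.9% in lung (lowest, median and highest). The lowest library outside the heart, that same lung library, was above every heart library (adjusted p = 1.32e-17). The leading heart transcript, PB.16853.4, has 1 more junction and the same end, and its coding region is 2994 nt against 3129 nt. A heart form with its own last residues and a widely expressed longer form are the textbook products of this gene.

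PB.6804.1 of MYL6 took 40.4%, 49.5% and 66.3% in heart and 88.1%, 89.5% and 94.0% in kidney, with 63.7 ± 8.75% in lung (adjusted p = 2.24e-16). The alternative PB.6804.2, at 29.7% in heart and 8.55% in kidney, adds an internal exon of 46 nt. PB.15965.9 of FXR1, an RNA-binding protein of the fragile X family, took 28.3%, 38.7% and 49.6% in heart and 0% in all 32 other libraries (adjusted p = 5.94e-32). It holds exons of 81 and 92 nt that PB.15965.46, the leading kidney transcript, skips. All 15 of its full-length reads came from heart.

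The remaining transcripts of high-level genes varied more between animals. PB.8774.10 of HP1BP3, a chromatin protein, took 31.9%, 44.2% and 57.8% in spleen and 0%, 7.91% and 17.7% in heart, with no overlap (adjusted p = 3.45e-07). It shares its coding region with PB.8774.6, which took 47.1% in heart and lacks an exon of 196 nt, so the change lies outside the coding sequence. PB.17833.6 of NT5C2, a cytosolic nucleotidase, ranged from 20.02% to 73.6% in kidney and from 0% to 27.9% in liver, and these groups overlapped (adjusted p = 1.94e-06). PB.14110.2 of PECAM1 ranged from 19.7% to 87.6% in heart and from 8.86% to 41.8% in liver, which overlapped (adjusted p = 4.79e-06), and in BS libraries alone the change was not called (adjusted p = 0.322). It had 303 full-length reads against 6042 for PB.14110.4.

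Long reads and short reads named the same leading member in 311 of 720 gene and tissue pairs with 20 or more full-length reads (43.2%). Of the 140 called members, 108 had 20 or more reads on their gene's members in both extreme tissues, and in 90 of those the share of reads also differed in the called direction. Called members had a median of 56 reads, and 22 had 2 reads or fewer. Near-identical transcripts also differed: PB.7207.2 of CD163, a scavenger receptor of macrophages, and its alternative PB.7207.17 had identical introns and coding regions and ends within 5 nt of each other, with usage of 74.6% and 11.5% in liver and 6.69% and 52.7% in kidney, and 4831 against 2 full-length reads. PB.19128.24 of DAB2, an endocytic adaptor, was at 0% of TPM in all 8 kidney libraries while 241 of its full-length reads came from kidney. CD163 and DAB2 were named after their values were seen.

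Exon inclusion sums the TPM of all transcripts that hold an internal exon and compares it with that of all that skip it. In the isoform-rich genes 161 of 1190 internal exons tested (13.5%) changed by 20 points or more (limma moderated F test, adjusted p under 0.05), on 60 of 136 genes. The share over all exons tested was 6.59%. Neighbouring exons that leave together count separately, as in LRRFIP2 with 17 called exons. Median differences were near the background, at 2.30 points for these exons and 2.07 for all. Heart had the highest inclusion for 112 of the 161 and the lowest for 27 (458 and 243 of the 879 called over all genes), so 86.3% had heart at an extreme, beside 79.7% of called exons over all genes. These genes passed their limit through long reads, and heart held the most member reads in each pig group. The counts of called exons are thus not independent of the choice of genes. Called exons had a median length of 90 nt, and 121 (75.2%) had a length divisible by 3, against 52.9% of the exons tested in these genes. Of the 161, 134 (83.2%) lay wholly within the coding region of a transcript that holds them, against 65.6% of the exons tested in these genes and 75.2% of called exons over all genes.

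Inclusion from full-length reads lay close to inclusion from TPM. Over 5055 exon and tissue pairs with 20 or more reads in these genes the median absolute difference was 0.860 points and Pearson's r was 0.98, and over the 599 pairs of called exons it was 6.97 points with r of 0.89. The pairs share genes and annotation and are given as a description. Of the 106 called exons with 20 or more reads in both extreme tissues, 103 differed in the called direction in reads, and 83 by 20 points or more.

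**Figure D3:**
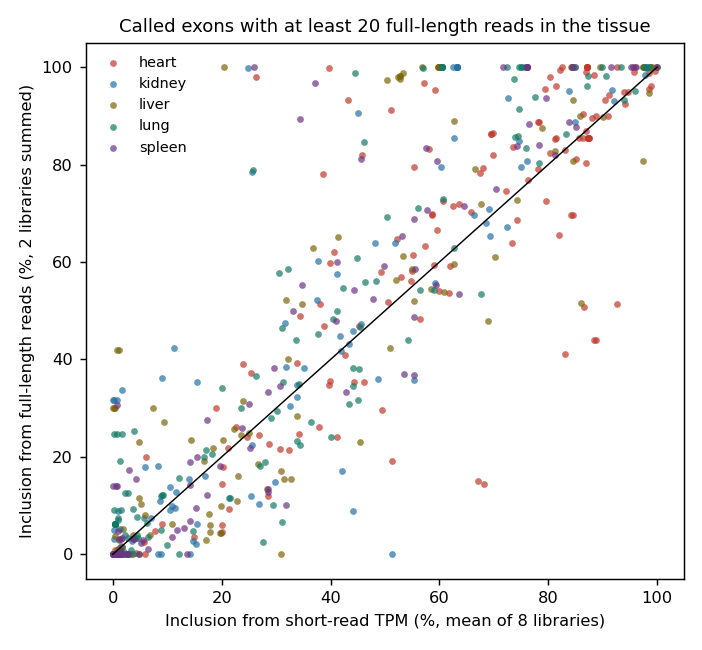
Inclusion of called exons from full-length reads (y axis, percent, BS and DSE libraries of the tissue summed) against inclusion from short-read TPM (x axis, percent, mean of 8 libraries), 1 point per exon and tissue with at least 20 reads, colour by tissue, line of identity in black. Of the 599 points, 490 lie within 20 points of percent of the line.

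In TPM1 a 79 nt exon (chromosome 1, 108995120 to 108995198, minus strand, coding) was included at 93.8%, 94.6% and 96.1% in heart (lowest, median and highest). No other library passed 1.71% except BS4 liver with 30.0%. Heart and kidney differed by 94.4 points (adjusted p = 6.35e-23), and by as much without the BS4 liver and DSE2 lung libraries. Full-length reads included it in 3133 of 3303 in heart (94.9%, exact 95% interval 94.0 to 95.6) and in 0 of 663 elsewhere, which allows up to 0.452%. The limit for a count of 0, here and below, is 3 reads over the total, and the exact 95% upper bound for the same count is 0.555%. Intervals and limits cover counting error only.

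Further upstream in TPM1, 2 exons of 76 nt traded places. The exon at 108997525 to 108997600 was included at 99.6 ± 0.0916% in heart, 83.9 ± 5.0% in spleen, 56.5 ± 5.08% in lung and 32.5 ± 4.58% in kidney. The exon at 108998047 to 108998122 stood at 0.458 ± 0.107%, 17.3 ± 5.04%, 45.3 ± 4.56% and 69.1 ± 4.64% in the same tissues (SD, n = 8). Of 25 members, 14 held the first alone, 5 the other alone, 4 both and 2 neither. A 126 nt exon near the start of the gene (109014880 to 109015005) was included at 1.47 ± 0.403% in heart and at 81.2 ± 3.30% in spleen.

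TPM2 also has a pair of neighbouring 76 nt exons. The exon at chromosome 1, 236404906 to 236404981, was included at 80.7%, 87.8% and 90.7% in heart and at 10.4%, 12.4% and 18.6% in kidney (adjusted p = 1.88e-24). Its partner at 236405226 to 236405301 stood at 24.7 ± 2.33% in heart and 89.4 ± 3.26% in kidney. In full-length reads of members the first exon was held by 556 of 562 in heart and its partner by 135 of 559 (24.2%), so some heart reads held both. Of 23 members, 9 held the first alone, 4 the partner alone, 4 both and 6 neither. Outside heart 12 reads were informative, too few to compare.

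**Figure D4:**
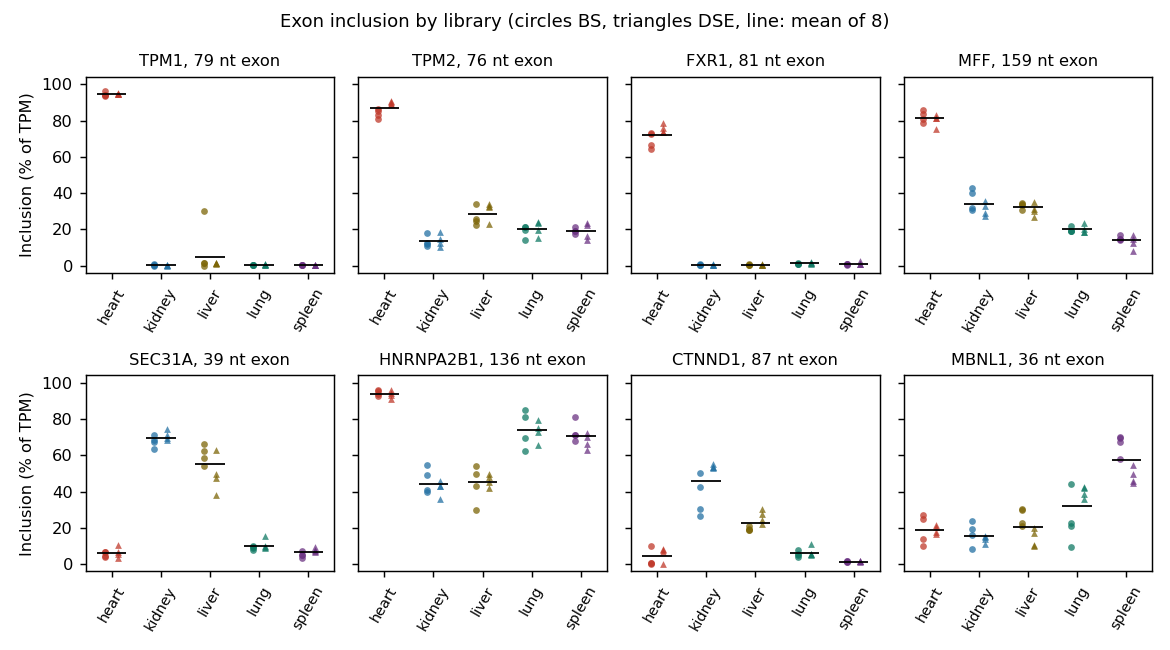
Inclusion of the 8 exons named by rule (y axis, percent of informative TPM) by tissue (x axis), 1 point per short-read library, circles BS, triangles DSE, horizontal line the mean of 8. The TPM1 exon lies above 93% in every heart library, and its 1 high liver point at 30.0% is BS4.

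FXR1 held an 81 nt coding exon (chromosome 13, 118894150 to 118894230) at 64.2%, 73.4% and 78.6% in heart, and no other library passed 2.36% (adjusted p = 1.89e-29). Full-length reads held it in 100 of 134 in heart (74.6%, exact 95% interval 66.4 to 81.7) and in 0 of 241 elsewhere, which allows up to 1.24% (exact upper bound 1.52%). A 92 nt exon downstream in FXR1 was included at 73.5 ± 2.88% in heart and 31.6 ± 1.54% in kidney. MFF, a receptor for mitochondrial fission, had a 159 nt exon (chromosome 15, 128788472 to 128788630) at 75.3%, 81.5% and 86.0% in heart, 33.9 ± 5.47% in kidney, 14.1 ± 2.76% in spleen, 20.02 ± 1.78% in lung and 32.1 ± 2.76% in liver (adjusted p = 8.35e-24). Heart did not overlap any other tissue. A 75 nt exon of MFF was at 59.6 ± 3.31% in heart and at most 3.68% on average elsewhere.

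HNRNPA2B1 held a 136 nt exon (chromosome 18, 46214639 to 46214774) that lay in no coding region. Its inclusion was 90.8%, 94.0% and 96.3% in heart, 62.2%, 73.8% and 85.0% in lung, 62.8%, 70.6% and 80.8% in spleen, 29.9%, 46.8% and 54.1% in liver, and 35.9%, 43.1% and 54.7% in kidney (adjusted p = 1.39e-17). Kidney and liver overlapped each other, as did lung and spleen, and heart lay above all. Full-length reads held it in 37 of 40 in heart and 22 of 48 in kidney.

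In SEC31A and CTNND1, exon inclusion by TPM was higher in kidney and liver than in the other 3 tissues. SEC31A held a 39 nt coding exon (chromosome 8, 135484243 to 135484281) at 63.3%, 69.0% and 74.6% in kidney and 38.4%, 56.3% and 66.0% in liver. It stood at 9.96 ± 2.28% in lung, 6.55 ± 1.88% in spleen and 5.96 ± 2.15% in heart (adjusted p = 2.75e-24). Full-length reads held it in 191 of 292 in kidney, 122 of 208 in liver and 0 of 294 in heart. A 78 nt exon of SEC31A ran against it, with 62.0 ± 6.10% in heart, 14.1 ± 3.32% in kidney and 5.85 ± 1.24% in liver. CTNND1, the p120 catenin that binds cadherins, held an 87 nt exon (chromosome 2, 13158887 to 13158973) at 26.5%, 51.5% and 55.2% in kidney and 22.9 ± 4.23% in liver, against 6.28 ± 2.22% in lung, 4.32 ± 4.29% in heart and 1.41 ± 0.244% in spleen (adjusted p = 7.70e-16). Kidney and liver overlapped. Full-length reads held it in 154 of 326 in kidney (47.2%, exact 95% interval 41.7 to 52.8), in 7 of 64 in liver (10.9%, 4.51 to 21.2) and in 20 of 306 in lung (6.54%, 4.04 to 9.91), so liver and lung overlapped in reads.

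MBNL1 held a 36 nt coding exon (chromosome 13, 92686302 to 92686337) at 44.9%, 56.4% and 70.1% in spleen and 9.59%, 37.3% and 44.1% in lung. In heart, kidney and liver its means lay between 15.5% and 20.2% (adjusted p = 7.79e-11), and no library of these tissues passed 30.6%. Full-length reads held it in 200 of 240 in spleen (83.3%, exact 95% interval 78.0 to 87.8) and 294 of 743 elsewhere (39.6%, 36.03 to 43.2). The difference has the same direction on both platforms, and the level was higher in reads.

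Exons with 5 to 20 TPM of informative transcripts in the tissue where these were lowest gave changes as large. Those named here were chosen after their values were seen. PDLIM5 held an 18 nt exon at 98.8 ± 0.200% in heart and 1.62 ± 1.20% in kidney, with 34.3% in BS4 liver. Full-length reads held it in 1714 of 1784 in heart and in 26.7% of 390 elsewhere, above the short-read level. USP28, a deubiquitinase, held a 186 nt exon at 90.9 ± 2.38% in heart and at most 5.4% on average elsewhere. LRRFIP2 held a 51 nt exon at 87.3 ± 4.27% in heart and under 1% on average elsewhere. EPB41L3 held a 66 nt exon at 86.3 ± 3.96% in heart and in 197 of 218 heart reads, against 0 of 529 reads elsewhere, which allows up to 0.567%. LMO7 held a 42 nt exon at 83.0 ± 3.94% in heart and in 964 of 1162 heart reads, against 0 of 545 elsewhere, which allows up to 0.550%. Heart, with 1162 reads of LMO7 members, also held reads of 91 of its 110 members.

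Other exons were left out in heart. SLMAP held a 123 nt exon at 6.11 ± 0.962% in heart and at 74.4% to 91.6% on average elsewhere. By full-length reads of members its heart share was 20.1%, with members holding 25.8% of the reads of that locus. SORBS2 left out a 93 nt exon in heart (5.74 ± 1.98%) and spleen (18.6 ± 8.30%) and kept it in liver (85.9 ± 5.45%) and lung (83.2 ± 5.85%). NUMB, an endocytic adaptor that restrains Notch, held a 147 nt exon at 59.1 ± 5.14% in kidney, 33.8 ± 4.83% in liver and 0.217 ± 0.306% in heart, and full-length reads held it in 109 of 196 in kidney and 0 of 153 in heart. PPFIBP1, a liprin, held a 33 nt exon at 79.6 ± 3.48% in heart, 63.6 ± 5.54% in spleen and 15.4 ± 7.55% in kidney. The 9 exons of this kind named here, and the 126 nt exon of TPM1, had adjusted p of at most 8.82e-18.

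The counts of called exons per gene group stand beside 6.59% of all exons tested. In the Z-disc and LIM adaptors (among them LMO7, SORBS2, PDLIM5 and FHL1) 27 of 74 tested exons were called, on 4 of the 6 genes, with a median difference of 5.51 points beside 2.07 over all exons. In the sarcomere and calcium genes 13 of 42 were called, on 3 of 7 genes, with a median of 0.670 points. Membrane trafficking had 11 of 59 and a median of 2.79 points, cytoskeletal linkers 12 of 77 and 1.34 points, and tissue splicing regulators 5 of 52 and 4.37 points. None of the 29 exons of SR-related genes (median 1.85 points) or the 31 of translation factors (median 2.67 points) was called. Genes were matched to the lists by symbol, so ENSSSCG00000004489, whose span matches that of EEF1A1, was not counted. It had 1 called exon. The hnRNP genes had 2 of 23 called, both in HNRNPA2B1, with a median of 0.693 points. By usage, 14 of 59 members were called for the Z-disc adaptors, 12 of 34 for the sarcomere genes, 14 of 64 for the cytoskeletal linkers, 8 of 51 for membrane trafficking and 0 of 5 for translation factors, beside 12.4% of all transcripts tested. No exon of ITIH4 or PTPRC passed the level filter. The lists were compiled with earlier results of these data known.

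Between pig groups a smaller share of members was called than of all transcripts. Usage averaged over tissues within each animal changed between BS and DSE by 10 points or more in 69 of 1037 members (6.65%, limma adjusted p under 0.05, n = 4 animals per group), on 46 genes, with 41 higher in BS and 28 higher in DSE. Over all transcripts tested the share was 14.2%. The 69 had a median of 5 full-length reads, and 28 had 2 reads or fewer.

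In TFRC, the transferrin receptor, PB.16111.22 took 63.0%, 67.7%, 41.5% and 54.8% in the 4 BS animals and 12.0%, 5.03%, 0.360% and 8.89% in the 4 DSE animals. The groups did not overlap (difference 50.2 points, adjusted p = 8.78e-05). In ADGRL2, an adhesion receptor, PB.9261.17 took 46.5%, 45.9%, 30.5% and 34.7% in BS and 4.94%, 0.203%, 4.36% and 14.2% in DSE (adjusted p = 0.000442). In TRIP12, a ubiquitin ligase, PB.18925.35 took 53.6%, 57.1%, 38.9% and 42.6% in BS and 10.3%, 16.8%, 13.3% and 20.3% in DSE (adjusted p = 0.000901). BS was higher in all 5 tissues for each of the 3.

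Full-length reads did not show these 3 transcripts as major ones. Each had 1 read in the BS and 1 in the DSE libraries, out of 2207 and 743 reads on TFRC members, 152 and 61 on ADGRL2 members and 444 and 169 on TRIP12 members. In EPS15, an endocytic adaptor, PB.9460.8 took 34.5%, 27.9%, 36.9% and 46.8% in BS and 69.9%, 71.6%, 69.3% and 64.4% in DSE, without overlap (adjusted p = 0.00128). Its share of the full-length reads of EPS15 members went the other way, with 216 of 440 in BS (49.1%, exact 95% interval 44.3 to 53.9) and 65 of 213 in DSE (30.5%, 24.4 to 37.2). Over the 69 called members, the share of full-length reads differed in the called direction in 33, each pig group having 5 long-read libraries of 1 tissue each.

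**Figure D5:**
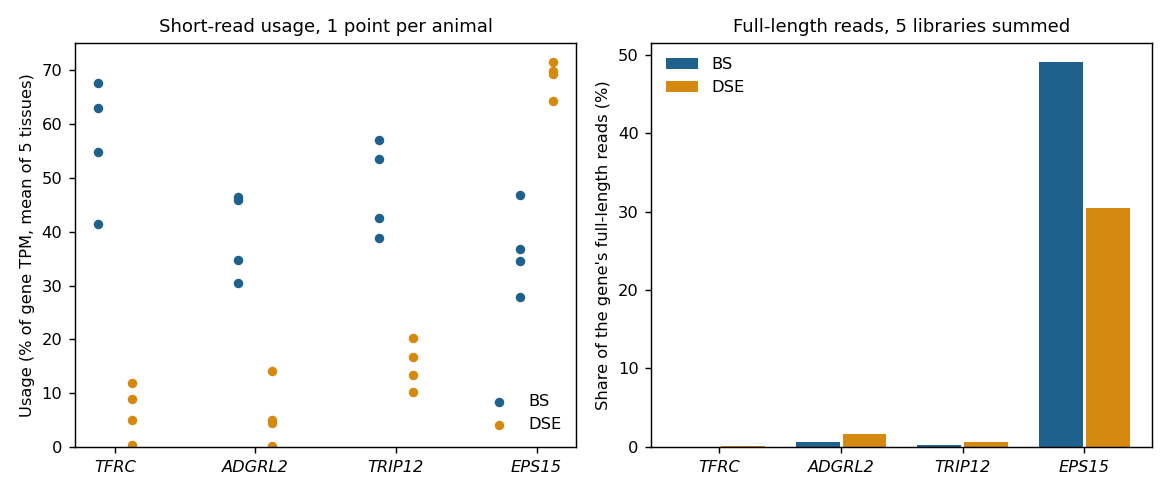
Left, usage of the named TFRC, ADGRL2, TRIP12 and EPS15 transcripts (y axis, percent of gene TPM, mean of 5 tissues), 1 point per animal, blue BS and orange DSE. Right, the share of the gene's member full-length reads on the same transcript (y axis, percent, 5 libraries summed), which is under 2% for TFRC, ADGRL2 and TRIP12 and higher in BS for EPS15.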

How the data were processed

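Pig RNA was measured in 40 short-read and 10 long-read libraries. Gene and transcript levels were deposited as TPM, and full-length reads were deposited as counts per transcript identifier. Per the submitters' processing notes the tools included STAR 2.7.10a and Salmon 1.10.1, with build susScr11 and no role given. Per the file headers, rtracklayer 1.58.0 produced the deposited annotation. How the long reads were collapsed, and whether strand was used, is not given in the sources used here, so overlapping genes cannot be told apart. No label matched 20 gene-level TPM columns, 20 transcript-level ones and 5 count columns, which were left out. Samples labelled DT were not analysed here. Depth of the short reads is unknown. P-values across tissues measure the spread between libraries of different animals within a tissue and pig group, without an animal block. Those between pig groups measure the spread of animal means. For full-length reads they measure what remains between single libraries after tissue and pig group are fitted.

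From these values, usage was a transcript's percent of its gene's TPM, and inclusion the TPM percent of transcripts that hold an internal exon among those that hold it or span it with 1 intron. Log2 ratios with a pseudocount of 0.5 TPM were tested over tissues with limma 3.58.1 in R 4.3.3, on all genes with at least 5 TPM in every tissue and, for usage, at least 5% in a tissue. Pig groups were compared on animal means. Gene levels were tested on log2(TPM + 1), whose fold understates changes of low genes, among genes of at least 1 TPM in a tissue. Counts were tested with edgeR 4.0.16 (TMM, tissue and pig group), and DESeq2 1.42.0 was an alternative. P-values were adjusted over all features of each test. The scripts were tested on simulated data. Python 3.11.15, pandas 2.3.3, numpy 2.4.6, scipy 1.17.1 and matplotlib 3.10.9 prepared tables and plots.

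Members and lists were chosen with earlier results of these data known. Genes were named by rule: the 10 with most long-read transcripts, the 8 transcripts and 8 exons (at most 300 nt) with the largest called differences at 20 TPM or more in every tissue, 4 by pig group, 5 with most reads and 5 with the largest tissue fold, the 5 highest and lowest effective numbers, and the first 4 members of each list. Mitochondrial and LOC symbols were not named.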

Additional observations from a re-analysis of the deposited data

Results flagged for a closer look

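Among 88 groups of libraries or animals behind the named exons and transcripts, 9 held a value whose gap to the nearest other, over the group's range, passed Dixon's 95% critical value, which by its construction chance passes in about 1 group in 20. In liver, BS4 stood apart in TPM1, with 30.0% inclusion of the 79 nt exon against 0% to 1.71% in the other 7 libraries and 25.5% usage of PB.724.22 against 0%. That library also held heart muscle genes at 30.8 to 73.2 TPM, and their part in the result was not tested. In lung, DSE2 held the SEC31A 39 nt exon at 15.3% against 7.60% to 10.2%, and in spleen DSE4 held the FXR1 81 nt exon at 2.36% against 0.642% to 1.21%.

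PECAM1 PB.14110.2 was low in 1 heart library, BS2 with 19.7% against 59.2% to 87.6%, and in 1 kidney library, BS1 with 28.0% against 56.9% to 75.3%. NT5C2 PB.17833.6 was low in the same BS1 kidney library, at 20.02% against 53.7% to 73.6%. MYL6 PB.6804.1 reached 94.0% in BS3 kidney against 88.1% to 90.4%, and TPM1 PB.724.22 reached 0.525% in BS2 kidney against 0% to 0.140%.

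Outside the annotated transcripts, 156181 full-length reads fell on 584 long-read identifiers of the same loci. They entered the library totals and were among the identifiers put to the test of full-length reads across tissues. They also gave the share of locus reads that members hold. For the 8 named transcripts and 8 named exons, no interaction of tissue and pig group passed the threshold (limma, adjusted p from 0.0943 to 0.966), which does not show that the groups acted alike. FXR1 PB.15965.9 in heart ranged from 42.7% to 49.6% in BS and from 28.3% to 34.6% in DSE, and the MBNL1 36 nt exon in spleen from 58.0% to 70.1% in BS and from 44.9% to 54.7% in DSE, both without overlap. Of all members, 50 of the 1037 tested by usage passed the interaction test at adjusted p under 0.05.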

How the results depend on the processing

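Counts of called members followed the thresholds. Requiring 20 TPM in every tissue left 48 transcripts by usage and 40 exons, and requiring 1 TPM gave 247 exons. With differences of 10 points there were 359 transcripts and 258 exons, with 40 points 22 and 101, and with 20 points between pig groups 20 transcripts. Without the filter on reads 677 members were called by full-length counts, with 48527 long-read identifiers tested, annotated or not. All other alternatives stayed within 1.5 times: other pseudocounts, 1 pig group alone, DESeq2, other size factors, and leaving out each animal in turn. Leaving out an animal gave 137 to 147 transcripts, 160 to 169 exons, 60 to 73 for pig groups and 33 to 36 genes. Each fit without 1 long-read library left a tissue with 1 library, and the read filter, set from the design, changed with it. These fits called more members than the 347 of all 10 libraries and do not show how stable the 347 are. Without the BS4 liver and DSE2 lung libraries, an alternative chosen after seeing the data, 139 transcripts, 161 exons and 35 genes were called. Of the named items, none reversed, and 4 usage changes lost their call: MYL6, FXR1 and HP1BP3 at 40 points and PECAM1 in BS libraries alone.

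Samples of the same animal deviated together with a median r of 0.19 over 80 pairs (lowest -0.30, 54 pairs over 0.1), so the pairing did not hold in every pair. With the animal as a replicate block 139 transcripts, 162 exons and 35 genes were called, and with the shared number as a block 63 members between pig groups. Numbers shared by BS and DSE had a median r of -0.07. Short-read depth is unknown, and 3 reads at a median member limit what full-length counts can show.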
